A study of Mus musculus with 8 samples.

Results

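Imprinted growth genes are genes expressed from the maternal or the paternal copy alone that set how large the fetus and its organs grow. The set followed here lists 10 symbols: Igf2, H19, Dlk1, Meg3, Peg3, Cdkn1c, Grb10, Mest, Plagl1 and Igf2r. Members were all probe sets (groups of probes read as 1 signal) that the array annotation assigns to exactly 1 of these symbols. That gave 30 of 45037 probe sets on the E18.5 array and 16 of 12422 on the E11.5 array, for 9 of the 10 genes on each. H19 had no member, because the probe set that carries its symbol on each array is also annotated to Mir675. A probe set shared by Airn and Igf2r on the E18.5 array was left out for the same reason.

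The samples were mouse tissues of the FVB/N strain on Affymetrix 1-colour arrays, 8 in all. At E18.5, late in gestation (E stands for embryonic day), there were 3 lungs labelled MIA double transgenic, the SP-C/MIA overexpressor (bitransgenic below), and 3 of single transgenic control littermates. At E11.5 there was 1 lung and 1 trachea, on an older array type. The series asked how misexpressed MIA, a secreted protein, alters gene expression in the late fetal lung, and which genes differ between early lung and trachea. SP-C is the surfactant protein C gene, whose promoter is active in distal lung epithelium. The labels do not say which transgene the controls carried or whether each array came from a separate embryo. If they did not, the p-values below measure a spread that may be technical.

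At imprinted loci the parental copies differ in DNA methylation, and a control region shared by neighbouring genes sets which copy is read. In the mouse Igf2, Dlk1, Peg3, Mest and Plagl1 are read from the paternal copy, while Meg3, Igf2r and Cdkn1c are read from the maternal copy, as is Grb10 outside the brain. Paternally read genes of this kind tend to promote fetal growth and maternally read ones to restrain it. Dlk1 and Meg3 are neighbours on chromosome 12 and share 1 control region, and Igf2 and Cdkn1c lie in adjoining imprinted domains of chromosome 7. Expression of most of these genes is high in the fetus and declines after birth. An array signal adds both parental copies, so nothing below bears on which copy was read.

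The results turn on Dlk1, which was called, and Meg3, which as a gene was not, so the promoter windows of both are shown. That of Peg3, a member also not called, is shown for comparison. The windows are RefSeq sequences of build GRCm38.p6, from 250 bases before to 50 bases after a start site. The Dlk1 window is chr12:109452573-109452872 on the plus strand. The Meg3 window at the upstream of its 2 listed starts is chr12:109540746-109541045 on the plus strand. The Peg3 window is chr7:6730370-6730669 on the minus strand. Capitals mark TGACGTCA, the cyclic AMP response element, and TATAAA, the TATA box, each searched on both strands.
Dlk1: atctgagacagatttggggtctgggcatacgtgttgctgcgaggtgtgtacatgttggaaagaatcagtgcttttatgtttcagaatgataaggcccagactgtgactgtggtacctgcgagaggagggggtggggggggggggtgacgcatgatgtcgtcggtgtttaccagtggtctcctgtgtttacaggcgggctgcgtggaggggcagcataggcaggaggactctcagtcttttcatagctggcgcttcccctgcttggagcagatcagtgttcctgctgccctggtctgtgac
Meg3: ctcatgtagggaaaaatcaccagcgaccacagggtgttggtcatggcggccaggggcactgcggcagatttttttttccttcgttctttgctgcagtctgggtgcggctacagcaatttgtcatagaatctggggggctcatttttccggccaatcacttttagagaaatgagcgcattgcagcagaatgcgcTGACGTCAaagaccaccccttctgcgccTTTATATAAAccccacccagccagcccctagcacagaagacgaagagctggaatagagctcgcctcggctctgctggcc
Peg3: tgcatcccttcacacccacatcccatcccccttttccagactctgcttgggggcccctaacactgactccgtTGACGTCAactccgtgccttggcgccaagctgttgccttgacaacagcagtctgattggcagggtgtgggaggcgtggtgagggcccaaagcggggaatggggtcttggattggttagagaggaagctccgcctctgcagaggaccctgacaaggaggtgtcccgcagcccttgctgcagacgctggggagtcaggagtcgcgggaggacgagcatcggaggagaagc

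TGACGTCA began 57 bases before the start in Meg3 and 178 bases before it in Peg3, and these letters were not in the Dlk1 window. Of 32851 promoter windows in the table, 1.79% hold TGACGTCA. TATAAA began 25 bases before the Meg3 start, overlapping a match on the other strand, and 13.6% of all windows hold it. Neither motif was found in the windows of the other 5 member genes matched, and Cdkn1c and H19 were not matched. The Dlk1 window held 9 CpG dinucleotides and the Meg3 and Peg3 windows 13 each, against a median of 7 over all windows. These matches describe the letters of the windows and carry no measurement of binding or methylation.

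The E18.5 arrays passed a check of their labels. Mia read 31399, 42666 and 41546 in the bitransgenic lungs, against 1071, 1070 and 734 in the controls. All arrays had an equal trimmed mean of 1500, and the medians ran from 415 to 464. Averaged over the other 5 E18.5 arrays, the correlation of log2 signals was lowest for bitransgenic 3, at 0.965, and control 3, at 0.957. The Actb 3' to 5' signal ratio, a sign of RNA quality, was 1.51 to 1.65 in the bitransgenic lungs and 1.28 to 1.501 in the controls. It thus differed between the groups in all E18.5 results, and its part in them was not tested beyond the fits named below. The lung lineage gene Nkx2-1 and the type II cell gene Sftpc were measured in both groups, with log2 changes of 0.12 and 0.00. The other 4 type II markers tested had negative values, given below. Of the skeletal muscle genes listed, Myod1, Myog, Myf5 and Tnnt3 lay below the filter on low values. Actc1 and Acta1 passed it, with log2 changes of -0.21 and -0.25. Of the cartilage genes listed, Col2a1, Comp and Matn1 lay below the filter. Sox9 and Acan passed it, with log2 changes of -0.27 and 0.21. None of those that passed was called.

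Dlk1 was the member called in the E18.5 comparison: its signal in bitransgenic lungs was 0.233 times that in controls. The noncoding transcripts Meg3, Rian and Mirg of its domain were also lower in every bitransgenic lung than in every control at their main probe sets, without passing the adjusted threshold. Dio3os, a noncoding RNA at the far end of the domain, went the other way, with a log2 change of 0.36 and overlapping groups. Igf2, Igf2r, Grb10, Cdkn1c, Plagl1, Peg3 and Mest had log2 changes between -0.37 and 0.24 and were not called. Of 9 member genes tested, 1 was called by limma at an adjusted p under 0.05, and it fell. Over all 12625 genes 0.673% were called and 0.436% were called lower. The median log2 change was -0.07 over the 9 members and 0.01 over all genes. Groups did not overlap for 4 members, Dlk1, Meg3, Grb10 and Cdkn1c, and for 16.4% of all genes. Mest, with an unadjusted limma p of 0.0472, ranked 1182 by p among the 12625 genes. At least 1182 genes thus had an unadjusted p under 0.05, and the counts at that level below are to be read beside this.

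**Figure D1:**
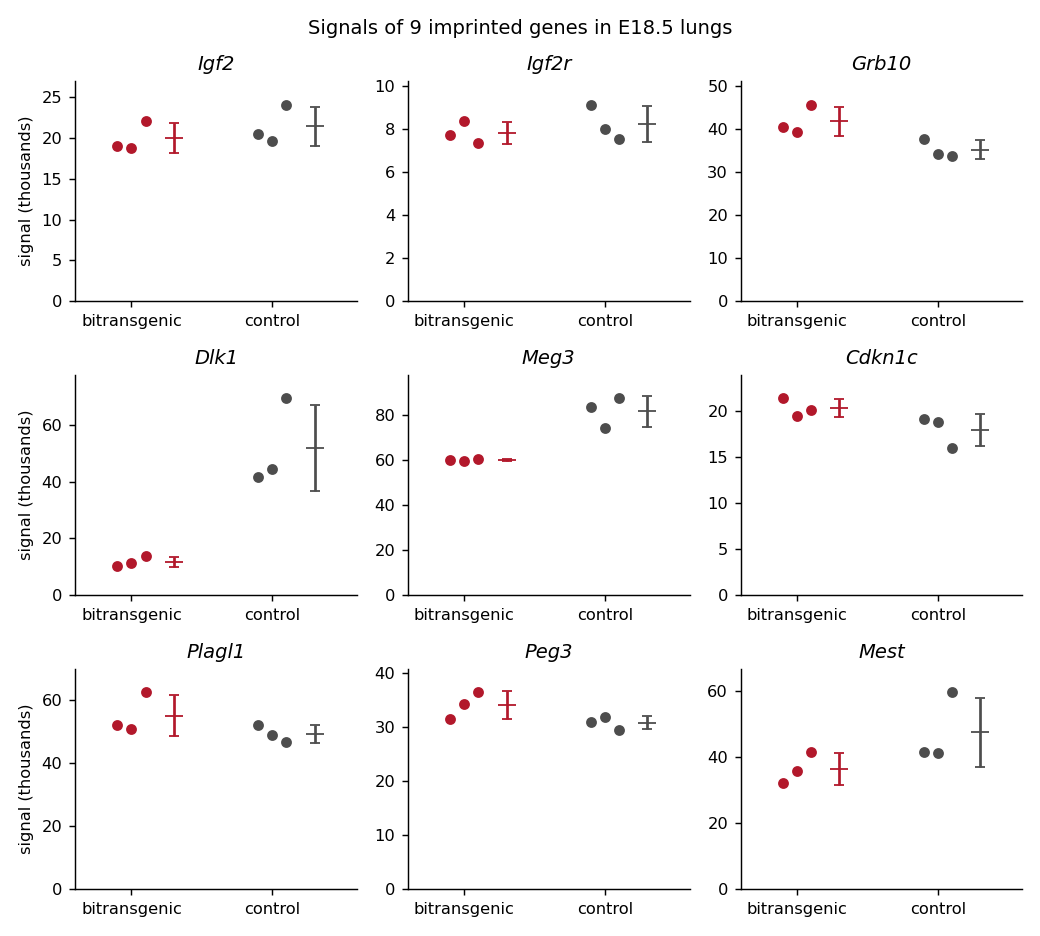
Signal of the probe set that represents each of 9 imprinted genes in E18.5 lungs, on linear axes that start at 0, with bitransgenic lungs in red and controls in grey (3 arrays each, points) and mean ± SD beside them. The 3 bitransgenic Dlk1 signals lie between 10368 and 13775, all below the lowest control at 41651, while the groups overlap for Igf2, Igf2r, Plagl1, Peg3 and Mest.

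Dlk1 encodes a membrane protein of the Delta family with EGF-like repeats, known for holding fat precursors and other progenitors in an undifferentiated state. Its main probe set read 10368, 11186 and 13775 in the bitransgenic lungs, against 41651, 44487 and 69379 in the controls. Every bitransgenic lung thus lay far below every control, and control 3 was above the other controls. The means were 11776 ± 1778 in bitransgenic lungs and 51839 ± 15256 in controls (SD, n = 3 each). The log2 change was -2.10 (SE 0.20, 95% interval -2.54 to -1.66, limma adjusted p = 0.00107). Dlk1 ranked 16 by p and 14 by size of fall among the 12625 genes. Without control 3 the log2 change was -1.87 (limma adjusted p = 0.000398).

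The Dlk1 probe set 1442724_at, of lower signal, read 363, 310 and 435 in the bitransgenic lungs, against 951, 1166 and 1105 in the controls. These groups did not overlap either. In the fit of all probe sets its log2 change was -1.35 (SE 0.18, limma adjusted p = 0.0139), so both Dlk1 probe sets were called lower. Over the 27022 probe sets tested 0.281% were called lower. In that fit 1 of the Dlk1 probe sets was called without bitransgenic 1, without bitransgenic 2 or without control 2, and both without each of the other arrays. When the fit included the Actb ratio, the log2 change at the main probe set was -1.69, still past the threshold (limma adjusted p = 0.0296). In the fit of all probe sets with that ratio, 1 of the 2 Dlk1 probe sets was called.

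Markers of several cell types differed between the groups, most of them in the direction of Dlk1. Of 5 type II markers tested 3 fell, the surfactant protein A gene Sftpa1 (log2 change -4.45), the phosphate transporter gene Slc34a2 (-1.68) and the lipid transporter gene Abca3 (-0.97). Sftpb had -1.99 with groups that did not overlap and was not called (limma adjusted p = 0.0692). Sftpc had 0.00 and was not called. The summed signal of the 5 markers was 97408 to 132186 in bitransgenic lungs and 202124 to 235587 in controls. Of 6 type I markers 3 fell, the water channel gene Aqp5 (-3.65), Rtkn2 (-1.47) and Clic5 (-1.43), with sums of 116215 to 130205 in bitransgenic lungs and 157415 to 169908 in controls. None of 6 endothelial markers was called by limma (4 at an unadjusted p under 0.05), and their sums were 36403 to 40532 in bitransgenic lungs against 47982 to 62829 in controls. At least 1182 of all 12625 genes had an unadjusted p under 0.05. The sums of 5 mesenchymal markers overlapped, 129110 to 160395 in bitransgenic lungs and 127703 to 163496 in controls. Of 3 mesothelial markers Msln fell (-1.61), with sums of 8844 to 11279 in bitransgenic lungs and 17480 to 28291 in controls. Upk3b (-0.01) and Wt1 (-0.33) were not called and had overlapping groups, so the gap in the sums is mainly that of Msln. Neither of 2 erythroid markers tested was called by limma (1 at an unadjusted p under 0.05). The sums of the 4 erythroid markers on the array, of which Hba-a1 and Hba-x lay below the filter, were 6240 to 9608 in bitransgenic lungs and 10941 to 15710 in controls. In the other direction, the cardiac myosin gene Myh7 rose (0.87), alone among 4 cardiac markers. The 5 lung epithelial markers all had positive values, none of them called by limma (2 at an unadjusted p under 0.05), with 0.63 for the adhesion gene Epcam. The part of any of these cells in the change of Dlk1 was not tested. In whole lungs, fewer cells of a type and less RNA per cell cannot be told apart.

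Meg3 is a long noncoding RNA read from the maternal copy next to Dlk1, and it had the most probe sets of any member. The probe set that represents the gene, 1439380_x_at, read 60144, 59829 and 60716 in the bitransgenic lungs, against 83676, 74304 and 87570 in the controls. The groups did not overlap, and the bitransgenic signals lay within a narrow band. The log2 change was -0.44 (SE 0.10, 95% interval -0.66 to -0.22, limma adjusted p = 0.0989), which missed the threshold. Meg3 ranked 163 by p among the 12625 genes. The suffix of this probe set marks probes that can also match other sequences.

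All 11 Meg3 probe sets had negative log2 changes, with a median of -0.78 and a range from -1.29 to -0.30. They share 1 transcript unit and are not replicates. In 9 of the 11 every bitransgenic lung was below every control, where 7.3% of all probe sets tested were lower with groups that did not overlap. In the fit of all probe sets 2 of the 11 were called lower, where 0.281% of the 27022 probe sets tested were. The first, 1426758_s_at, read 19054, 19025 and 26421 in the bitransgenic lungs, against 41056, 38632 and 56738 in the controls. Its log2 change was -1.07 (SE 0.18, limma adjusted p = 0.0431). The second, 1436713_s_at, read 9957, 11214 and 8458 in the bitransgenic lungs, against 18385, 16707 and 25060 in the controls, a log2 change of -1.003 (SE 0.17, limma adjusted p = 0.0476).

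The size of the Meg3 change varied between probe sets, and 1439380_x_at, which has the highest signal, gave the second smallest. The largest was at 1452906_at, with 1176, 1584 and 1637 in the bitransgenic lungs, against 2931, 2984 and 5640 in the controls. That log2 change of -1.29 did not pass (limma adjusted p = 0.0798). The smallest was at 1429256_at, a log2 change of -0.30, with groups that overlapped. Leaving out single arrays left no Meg3 probe set called without bitransgenic 1, bitransgenic 2, control 1 or control 2, and 1 called without bitransgenic 3 or without control 3. All 11 kept their negative sign in each of those fits.

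**Figure D2:**
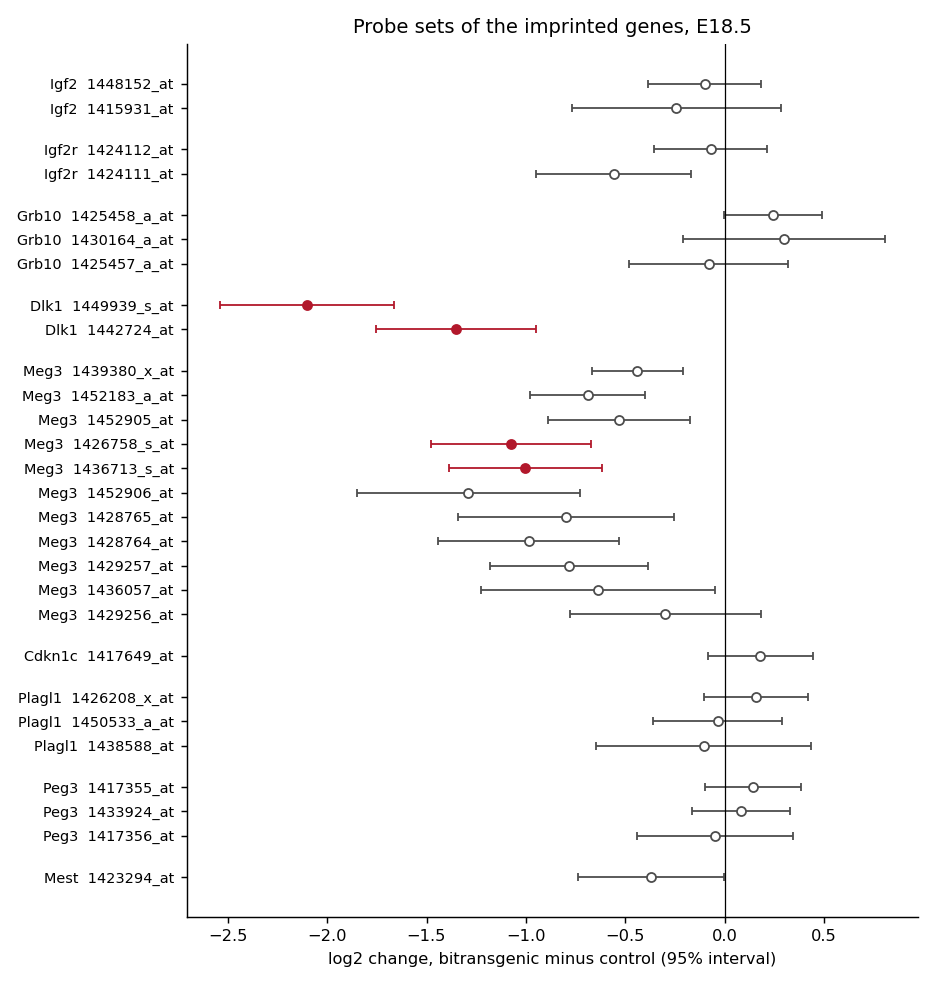
Log2 change, bitransgenic minus control, of the 28 member probe sets past the filter in E18.5 lungs, with 95% intervals from the fit of all probe sets (3 arrays per group). Filled red points are the 4 probe sets called at an adjusted p under 0.05, both of Dlk1 and 2 of Meg3, and within a gene probe sets run from high to low control signal.

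Further along the same domain lie Rian and Mirg, noncoding RNAs that are maternally read and carry small nucleolar RNAs and microRNAs. Rian read 2888, 2029 and 2413 in the bitransgenic lungs, against 3968, 3513 and 5269 in the controls. Its log2 change was -0.77 (SE 0.19, limma adjusted p = 0.143). Mirg read 1770, 1525 and 2028 in the bitransgenic lungs, against 3184, 2434 and 4037 in the controls, a log2 change of -0.81 (SE 0.20, limma adjusted p = 0.14). Neither passed, although no bitransgenic lung reached the lowest control for either gene. In all 4 Rian probe sets and both Mirg probe sets past the filter, every bitransgenic lung was below every control. Over all probe sets tested, 7.3% were lower with groups that did not overlap. The log2 changes ran from -0.77 to -0.67 for Rian and from -0.99 to -0.81 for Mirg. Probe sets of 1 gene are not replicates, and limma called none of these in the fit of all probe sets.

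The tested genes around these transcripts were set beside them. Of the 6 tested genes before Dlk1 and the 6 after Mirg in the RefSeq gene order of chromosome 12, none was called by limma, and 2 of the 12 had an unadjusted p under 0.05. Their log2 changes ran from -0.44 to 0.36 with a median of 0.02. An unadjusted p under 0.05 was reached by at least 1182 of all 12625 genes. Wars, a tRNA synthetase gene and the tested gene directly before Dlk1, had -0.44 (limma adjusted p = 0.481), and Mok, a kinase gene on the far side, had -0.37 (limma adjusted p = 0.497). Neither of these had overlapping groups, and groups did not overlap for 16.4% of all genes tested. Dio3os, a noncoding RNA at the far end of the domain, had 0.36 with overlapping groups (limma adjusted p = 0.887). The transcription factor gene Yy1 had 0.03 and the chaperone gene Hsp90aa1 had 0.01. This set of neighbours was chosen after the values of Dlk1 and Meg3 were seen, as was the stretch of chromosome 7 shown with it. From Igf2 to Cdkn1c limma called no tested gene, and 1 had an unadjusted p under 0.05. That gene was Kcnq1ot1, a paternally read noncoding RNA of the Cdkn1c domain, with a log2 change of 0.36 and groups that did not overlap (limma adjusted p = 0.451).

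**Figure D3:**
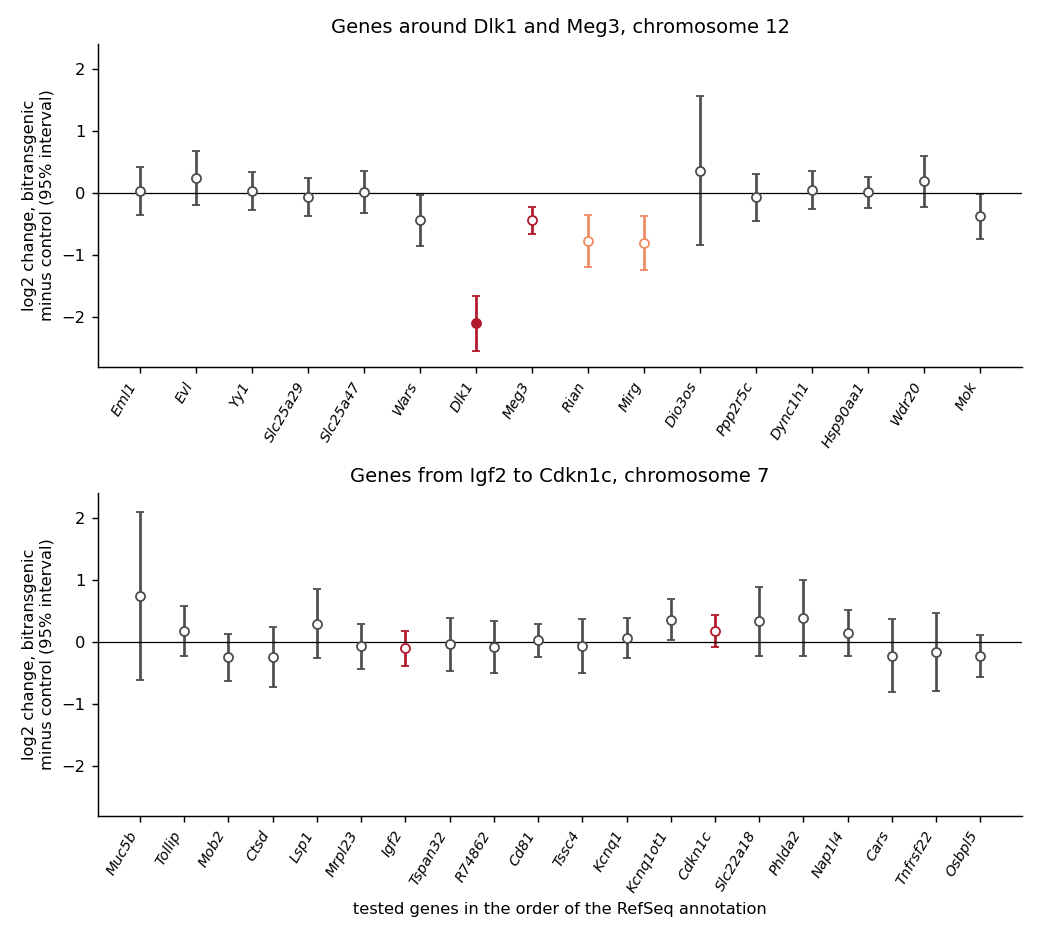
Log2 change, bitransgenic minus control, with 95% intervals, for tested genes in RefSeq order in E18.5 lungs (3 arrays per group). The top shows genes around Dlk1 and Meg3 on chromosome 12. The bottom shows chromosome 7 from Muc5b, before Igf2, to Osbpl5, after Cdkn1c. Members are red, Rian and Mirg orange and other genes grey, and the filled point, Dlk1 at -2.10, is the gene called at an adjusted p under 0.05.

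Igf2, the insulin-like growth factor II gene and the main fetal growth factor of the set, was not called. It read 19018, 18763 and 22046 in the bitransgenic lungs, against 20469, 19669 and 24076 in the controls. The groups overlapped, and the log2 change was -0.10 (95% interval -0.38 to 0.18, limma adjusted p = 0.866). The second Igf2 probe set, of low signal, had a log2 change of -0.24 and also overlapped.

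Igf2r encodes the mannose 6-phosphate receptor that clears IGF-II from the cell surface. It read 7737, 8390 and 7386 in the bitransgenic lungs, against 9147, 8030 and 7563 in the controls, with a log2 change of -0.07 (95% interval -0.35 to 0.21, limma adjusted p = 0.91). Its probe sets differed. The other, 1424111_at, read 2770, 2866 and 2365 in the bitransgenic lungs, against 3187, 3955 and 4898 in the controls. Those groups did not overlap, but the log2 change of -0.56 did not pass in the fit of all probe sets (limma adjusted p = 0.33).

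Grb10, an adaptor protein that dampens signals from the insulin and IGF receptors, read 40457, 39294 and 45683 in the bitransgenic lungs, against 37751, 34269 and 33757 in the controls. All bitransgenic lungs were above all controls by a small margin. The log2 change was 0.24 (95% interval 0.00 to 0.48, limma adjusted p = 0.503), and 2 probe sets of low signal had 0.30 and -0.08 with overlapping groups. Cdkn1c, the cyclin-dependent kinase inhibitor p57, read 21352, 19448 and 20091 in the bitransgenic lungs, against 19073, 18815 and 15948 in the controls. These groups did not overlap either, and the log2 change was 0.18 (95% interval -0.08 to 0.44, limma adjusted p = 0.709).

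The transcription factor members Plagl1 and Peg3 had small positive log2 changes at their main probe sets. Plagl1, a zinc finger protein that regulates other imprinted genes in the mouse, read 51822, 50757 and 62369 in the bitransgenic lungs, against 52052, 48876 and 46430 in the controls. Its log2 change was 0.16 (95% interval -0.09 to 0.41, limma adjusted p = 0.74), and its other probe sets had -0.03 and -0.11. The main Plagl1 probe set, 1426208_x_at, has the suffix that marks probes that can also match other sequences. Peg3, also a zinc finger protein, read 31337, 34271 and 36363 in the bitransgenic lungs, against 30952, 31757 and 29410 in the controls. The groups overlapped for both genes. Peg3 had a log2 change of 0.14 (95% interval -0.09 to 0.38, limma adjusted p = 0.746), its 2 further probe sets past the filter had 0.08 and -0.05, and the 2 below the filter read at most 73.7 on all arrays.

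Mest, a membrane protein of the alpha/beta hydrolase fold marked by mesodermal expression, had the largest negative value outside the Dlk1 domain at a main probe set. It read 31999, 35578 and 41377 in the bitransgenic lungs, against 41468, 41195 and 59567 in the controls. Bitransgenic 3 lay just above control 2, so the groups overlapped. The log2 change was -0.37 (95% interval -0.73 to -0.01, limma adjusted p = 0.505), with -0.19 without control 3 and -0.040 when the fit included the Actb ratio. The interval of each uncalled member is given because a p above the threshold does not show equal levels.

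Members also differed in how far replicates spread. The within-group SD of log2 signal was 0.32 for Dlk1 and 0.25 for Mest, and 0.09 for both Meg3 and Peg3 at their main probe sets. The median over all genes was 0.21.

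The list of other imprinted genes held 60 symbols, of which 40 were tested at E18.5. None rose, 2 fell and 38 were not called, with a median log2 change of -0.07. Over all genes tested 0.436% were called lower. Of the 40, 9 had an unadjusted limma p under 0.05, as did at least 1182 of all 12625 genes. Rian and Mirg, described above, are among the 38 not called. Both of those that fell lie outside the Dlk1 domain. Ddc, the aromatic amino acid decarboxylase gene, read 843, 1027 and 640 in the bitransgenic lungs, against 2976, 2801 and 2678 in the controls. Its log2 change was -1.67 (SE 0.17, limma adjusted p = 0.00258). Ddc lies next to Grb10 in the RefSeq order of chromosome 11 and is imprinted in the fetal mouse heart, while Grb10 had the log2 change of 0.24 given above. When the fit included the Actb ratio, Ddc had -1.60 and did not pass (limma adjusted p = 0.0893). With its probe sets averaged the log2 change was -0.92 (limma adjusted p = 0.0469), so they differed in size.

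Qpct, the glutaminyl cyclase gene, read 716, 646 and 725 in the bitransgenic lungs, against 1198, 1543 and 1674 in the controls. Its log2 change was -0.98 (SE 0.17, limma adjusted p = 0.037), and its call was lost without any 1 array except control 1 (limma adjusted p = 0.0643 to 0.191). With the Actb ratio in the fit Qpct had -0.84 and did not pass (limma adjusted p = 0.651). No other imprinted gene of the list was called in that fit. Slc38a4, an amino acid transporter gene, read 3265, 3251 and 2442 in the bitransgenic lungs, against 2027, 1808 and 1405 in the controls, without overlap. Its log2 change of 0.75 did not pass (limma adjusted p = 0.136).

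Of 24 tested genes of the wider IGF axis, covering ligands, receptors, binding proteins and adaptors, limma called none, and 2 had an unadjusted p under 0.05. The median log2 change was 0.02. Over all 12625 genes, at least 1182 had an unadjusted p under 0.05. Igfbp6, a binding protein with a preference for IGF-II, read 2977, 3949 and 3103 in the bitransgenic lungs, against 5216, 6632 and 9023 in the controls. These groups did not overlap. The log2 change was -1.01 (SE 0.20, limma adjusted p = 0.0733), and Igfbp6 passed without control 1 (limma adjusted p = 0.0304) and did not pass when any of the other 5 arrays was left out. When the fit included the Actb ratio its value was -0.48 (limma adjusted p = 0.791). Igfbp5, another binding protein, read 17170, 16649 and 17026 in the bitransgenic lungs, against 12872, 12895 and 9621 in the controls, a log2 change of 0.53 (limma adjusted p = 0.179). Irs1, an adaptor of the IGF receptor, had 0.26 (limma adjusted p = 0.662).

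Paralogues of the members were not called either, with 0 of 8 by limma and 3 at an unadjusted p under 0.05. At least 1182 of all 12625 genes reached that level. The Cdkn1c relative Cdkn1b, which encodes p27, read 5180, 5475 and 4154 in the bitransgenic lungs, against 8265, 7769 and 5820 in the controls. Its log2 change was -0.55 (limma adjusted p = 0.303), of opposite sign to that of Cdkn1c. The Grb10 relatives Grb14 and Grb7 had 0.40 and 0.52 (limma adjusted p = 0.314 and 0.422).

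At E11.5 the members were compared between 1 lung and 1 trachea array, so the ratios have no replicate check and no test. None of the 9 member genes was over 2-fold apart at its main probe set, where 3.42% of the 5114 genes compared were. Log2 ratios of lung over trachea ran from -0.61 to 0.79, with 5 genes higher in lung and 4 higher in trachea. The median was 0.09 over the members and -0.01 over all genes compared. Plagl1 had the largest ratio towards lung and Igf2 the largest towards trachea.

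Dlk1 read 13452 in lung and 8718 in trachea, a log2 ratio of 0.62. Plagl1 read 6832 in lung and 3916 in trachea (log2 ratio 0.79), and Grb10 read 13480 in lung and 7855 in trachea (0.77). Igf2r was near balance, with 7019 in lung and 6576 in trachea (0.09). On the trachea side, Igf2 read 42623 in lung and 65288 in trachea (-0.61), and Cdkn1c read 19149 in lung and 26561 in trachea (-0.47). Peg3 read 30465 in lung and 40085 in trachea (-0.39), and Mest read 16163 in lung and 19651 in trachea (-0.28).

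The Meg3 probe sets disagreed at E11.5. The probe set 160173_at read 5641 in lung and 5237 in trachea, a log2 ratio of 0.11. The other, 160172_at, read 204 in lung and 2249 in trachea, a log2 ratio of -3.02. It was 1 of 2 member probe sets over 2-fold apart among the 14 compared, where 3.51% of all probe sets compared were. The second was 92501_s_at of Plagl1, with 2349 in lung and 1120 in trachea, a log2 ratio of 1.02. When the Meg3 probe sets were averaged, the gene was over 2-fold apart, with a log2 ratio of -1.46. Which of the Meg3 transcripts each probe set reads was not analysed here.

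**Figure D4:**
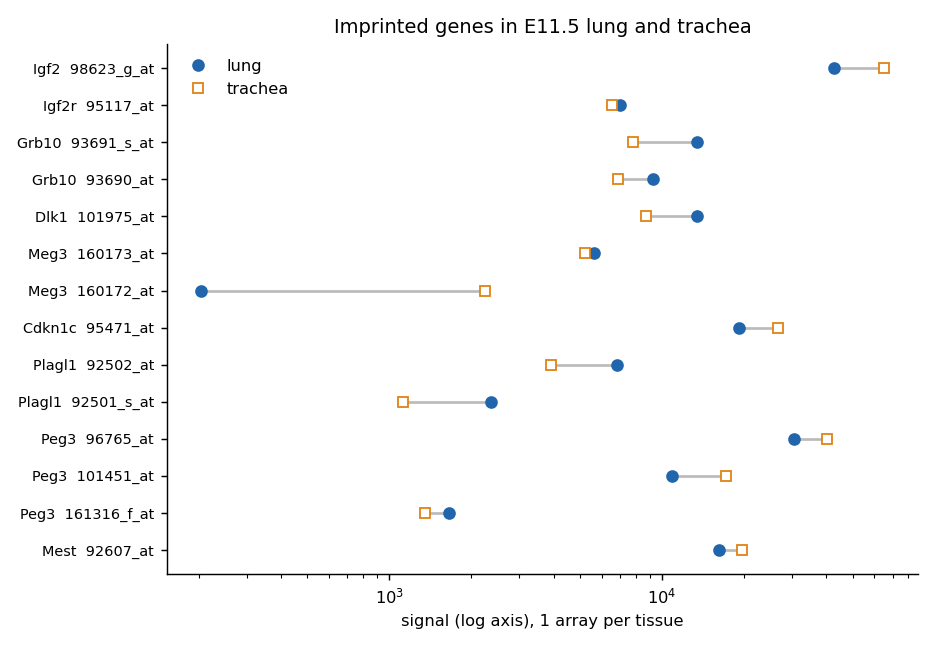
Signals of the 14 member probe sets past the filter in E11.5 lung (filled circles) and trachea (open squares), on a log axis, with 1 array per tissue. Lines join the readings of a probe set, and levels are not comparable between probe sets. The widest gap is that of Meg3 160172_at, 204 in lung and 2249 in trachea.

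Of the IGF axis, 13 genes were compared at E11.5, of which 3 were over 2-fold higher in trachea and none was over 2-fold higher in lung. The binding protein gene Igfbp3 read 534 in lung and 2251 in trachea (log2 ratio -1.92). The receptor adaptor gene Irs2 read 192 in lung and 591 in trachea (-1.29), and Htra1, a secreted protease gene, read 200 in lung and 570 in trachea (-1.20). Among 19 other imprinted genes compared, Dcn, a matrix proteoglycan gene of fibroblasts that is imprinted in mouse placenta, read 793 in lung and 2557 in trachea (-1.59). The tissue markers also differed: Sftpc read 1503 in lung and 257 in trachea, and 3 of 3 smooth muscle markers and 2 of 2 markers of neural crest and pharyngeal mesenchyme were over 2-fold higher in trachea. The part of tissue makeup in these ratios was not tested.

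The array types differ in probes and were scaled separately, so no level was compared between E11.5 and E18.5. Dlk1 was read on both, with a higher signal in lung than in trachea at E11.5 and a lower signal in bitransgenic than in control lungs at E18.5.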

How the data were processed

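Per the submitters' processing notes, the deposited values were made with MAS5, and its version is not given in the sources used here. The deposited unit of both tables is intensity, 1 linear signal per probe set and array. The values show a 2% trimmed mean of 1500 on each array and no logarithm. The members and gene lists were chosen with earlier results of these data known.

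Control probe sets (64 and 66) were left out. Gene symbols came from the array annotation table. The log2 of each signal was taken after adding a pseudocount equal to the 20th percentile of its table (86.4 at E18.5, 84.3 at E11.5). A fold change is on that scale and understates changes of low genes. For each gene the probe set of highest mean log2 value was used, and the gene was tested if that mean reached the 40th percentile of probe sets. All genes of the 6 E18.5 arrays were fitted with limma 3.58.1 in R 4.3.3 (lmFit and eBayes with an intensity trend), with two-sided p-values adjusted by Benjamini and Hochberg over all genes, and every probe set past the filter was fitted the same way. The fit was tested on simulated data. Exact permutation of 3 against 3 arrays cannot go below a p of 0.1. The number of arrays limits the precision. At E11.5 a gene was apart when over 2-fold different with its higher signal above the median of the table. Named genes were the members, the called genes and the 3 of smallest p (E11.5: largest ratio) of each list, though not every one is printed. Tissue markers are named as checks, and neighbours of Dlk1, Igf2 and Cdkn1c were chosen after their values were seen. Alternatives covered scaling, pseudocount, filter, probe set rule, variance model, covariates and left-out arrays. Promoter windows are RefSeq sequences, matched by symbol for 8 of 10 members. Figures were drawn with matplotlib 3.10.9.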

Additional observations from a re-analysis of the deposited data

How the results depend on the processing

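Over 18 alternative settings of the E18.5 fit, Dlk1 was called in all, with log2 changes from -2.24 to -1.69. Meg3 stayed negative in all of them, from -0.77 to -0.33. It was called with quantile normalization (limma adjusted p = 0.0437) and with array weights (limma adjusted p = 0.00737), so that 2 members were called in each of these. With the Actb ratio in the fit Meg3 had -0.37 (limma adjusted p = 0.791). Its limma adjusted p was 0.342 without a filter on low values and 0.307 without the intensity trend. The estimate of the array weights stopped before its convergence tolerance was reached. Each fit that left out 1 array called 1 member, as in the fit of all arrays, while the count over all genes ran from 22 to 97, against 85, with 22 without control 2, 36 without bitransgenic 3 and 41 without bitransgenic 1. That count was 1339 with array weights, 20 with the Actb ratio in the fit and 189 without both arrays of lowest correlation. Without a filter on low values 2 member probe sets were called, against 4. The number of Meg3 probe sets called ran from 0 (among others with the Actb ratio in the fit) to 7 with array weights, against 2. With array weights 10 other imprinted genes and 4 genes of the IGF axis were called, against 2 and 0. Signs turned for 3 uncalled members: with the Actb ratio in the fit Cdkn1c had a log2 change of -0.010 and Igf2 of 0.020, and over the fits that left out 1 array Igf2r ran from -0.13 to 0.0062, the highest without control 1. At E11.5, 1 member was over 2-fold apart with probe sets averaged, against 0. Rian and Mirg were negative in all 18 settings and called in 2 and 1 of them. With the Actb ratio in the fit their limma adjusted p was 0.829 and 0.847. The causes of these differences were not tested. No paired analysis was possible because the labels give no pairs of bitransgenic and control arrays. Signals near the pseudocount, such as those of the low Igf2 and Grb10 probe sets, limit what small changes can be seen.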

Other observations

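The 11 tested genes that keep or erase imprints held no gene called by limma at E18.5, and 1 had an unadjusted p under 0.05. At least 1182 of all 12625 genes reached that level. Tet2, which encodes an enzyme that oxidises methylated cytosine, read 6201, 5431 and 6495 in the bitransgenic lungs, against 4828, 4023 and 5093 in the controls, a log2 change of 0.38 (limma adjusted p = 0.414). Uhrf1, a cofactor of maintenance methylation, had 0.46 (limma adjusted p = 0.647), and Zfp445, a zinc finger protein that protects imprints, had 0.23 (limma adjusted p = 0.668). At E11.5 none of 5 such genes compared was over 2-fold apart, and Uhrf1 read 6538 in lung and 3537 in trachea (log2 ratio 0.87).

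The genes most like each member in log2 signal over the 6 E18.5 arrays were named as a description. For Dlk1 these were Garre1, Gask1b and Lipg, with Pearson r of 0.997, 0.996 and 0.994 and Spearman rho of 1, 0.943 and 0.943. For Igf2 they were Mrm3, Cdh13 and Zmat5, with Pearson r of 0.998, 0.994 and 0.993. Over the 9 members the 27 genes named this way had r from 0.976 to 0.998. None of the 27 was itself a member, and none was called. The arrays share the group difference and their number is small, so these values carry no test.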
